A study of Paxillus involutus and Laccaria bicolor with 24 samples.

Results

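The 100 gene models described here are those of the ectomycorrhizal fungus L. bicolor whose level moved mainly in the last interval of a starvation time course and ended highest. They were chosen from the deposited read counts. Of 23130 models, 14352 averaged 11 or more reads over the 12 L. bicolor libraries and were kept. Counts were expressed per 1000000 counted reads of the library (CPM), and the mean of each time point was taken as log2(CPM + 1). A model was kept when its last step, from T3 to T4, was upward and made up more than 60% of the summed absolute size of its 3 steps. This condition was met by 632 models, 4.40% of those tested, and the 100 with the largest difference between T4 and the highest of T1, T2 and T3 were taken. All 12 libraries entered this choice, so every level and difference between time points given here for the 100 models describes how they were chosen and tests nothing.

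RNA was sequenced from mycelium of L. bicolor (strain S238N in the study's methods) and of Paxillus involutus (strain ATCC 200175). The labels give the L. bicolor strain only as Maire P.D.Orton, the authority of the species name. There were 3 replicates at each of 4 time points, so that each species gave 12 libraries. All cultures had been deprived of nitrogen before they received a hot-water extract of spruce forest soil to which glucose was added. The L. bicolor groups were active growth on day 2 (T1), ammonium depletion on day 13 (T2), glucose depletion on day 23 (T3) and prolonged glucose depletion on day 30 (T4). Every group was on the extract and each state was sampled on 1 day, so day and depletion cannot be told apart, and a change in a model's RNA cannot be told apart from a change in the RNA of all other models.

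Ectomycorrhizal fungi live on the roots of trees, exchange soil nutrients for sugar from the host, and grow as mycelium in the soil. In a culture with no host, glucose is the sugar supply, and its loss leaves the mycelium with the soil extract and its own stores. Fungi that run out of sugar typically slow growth, recycle cell material and draw on other carbon sources. The files do not pair the gene models with gene names, and no identifier among the 100 matched the reference table or the supplementary tables used here (0 matches each). No gene name, role or sequence is therefore given. The models are called by their rank, from 1 for the largest difference to 100, and 2 model names are printed.

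The 100 models had reads at all time points and stepped up modestly at T4, so the working description of genes switched on under prolonged depletion was not borne out. No model lacked reads in any of the 9 libraries of T1 to T3 (0 of 100), the lowest count in any of these libraries was 1 read, and 83 models had at least 10 reads in every one of them. The mean level over T1 to T3 was between 0.642 and 158.9 CPM, with a median of 7.43. At T4 it was between 1.54 and 247.1 CPM, with a median of 12.8. On the log2(CPM + 1) scale T4 exceeded the highest earlier time point by 0.43 to 1.43, with a median of 0.54, which corresponds to 1.35-fold to 2.70-fold and a median of 1.45-fold. Only 3 models were at least 2-fold above their highest earlier time point and 36 were at least 1.5-fold above it.

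**Figure D1:**
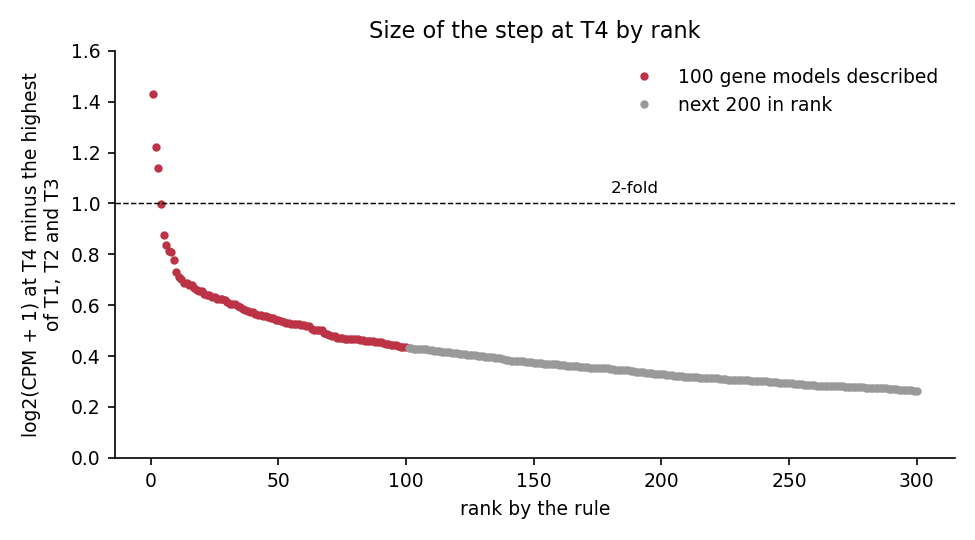
The difference in log2(CPM + 1) between T4 and the highest of T1, T2 and T3 is plotted against the rank of the gene model, for the 100 models described (red) and the next 200 that met the step condition (grey). The difference fell from 1.43 at rank 1 to 0.84 at rank 6 and then slowly, to 0.43 at rank 100, with no break between the models taken and those left out. The dashed line marks a 2-fold difference.

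The list had no natural edge at either threshold. Rank 100 lay 0.434 above its highest earlier time point, and the first 2 models left out lay 0.433 above theirs. The model with the smallest share of its path in the last step was rank 49, with 60.1% and a difference of 0.54. A further 555 tested models exceeded all earlier time points by at least as much as rank 100 but had 60% or less of their path in the last step. The closest of them had a share of 59.9% and a difference of 0.51.

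The model with the largest difference (rank 1, e_gw1.10.3451.1) stepped up in CPM at T3 and again, further, at T4. Its counts were 328, 371 and 265 reads in the 3 libraries of T1, 271, 311 and 295 at T2, 530, 464 and 423 at T3, and 1466, 1286 and 1455 at T4. The mean level was 28.1 ± 3.16 CPM at T1 and 24.98 ± 2.27 at T2, then 42.5 ± 6.87 at T3 and 116 ± 5.59 at T4 (SD, n = 3). Each T4 library was thus more than double the highest earlier library, and no library of T3 overlapped with T1 or T2. The log2 fold change from edgeR, which scales libraries with trimmed means of M values (TMM), was 1.36 ± 0.09 (SE) for T4 against T3 and 2.09 ± 0.09 for T4 against T2. The step from T2 to T3 was 0.73 ± 0.10, which left 61.1% of the path for the last step.

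On the CPM scale rank 2 was low, and flat until T3. It had 4.03, 4.68 and 4.45 CPM at T1, 3.40, 6.12 and 4.79 at T2, 4.33, 4.37 and 4.98 at T3, and 11.9, 10.1 and 15.4 at T4. The T4 libraries were all above the earlier ones but spread 1.48-fold among themselves, on the CPM + 1 scale, with replicate 3 the highest. In the edgeR fit T4 exceeded T3 by 1.37 ± 0.17 (SE) on the log2 scale.

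Rank 3 had the steadiest course of the leading models. It had 35.9, 39.7 and 33.0 CPM at T1, 36.4, 40.8 and 41.5 at T2, 40.0, 37.9 and 44.0 at T3, and 87.1, 89.0 and 95.9 at T4. The 9 earlier libraries lay close together and the 3 of T4 stood clear of them, and 87.5% of the path fell in the last step. T4 exceeded T3 by 1.07 ± 0.07 (SE) on the log2 scale, and T3 exceeded T2 by 0.01 ± 0.08.

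Ranks 4 and 5 moved mainly at T4, and rank 6 also stepped up at T3. Rank 4 averaged 10.3 ± 1.96, 8.26 ± 0.912, 9.67 ± 1.10 and 21.5 ± 0.611 CPM from T1 to T4 (SD, n = 3). Rank 5 averaged 1.55 ± 0.248, 1.97 ± 0.591, 2.48 ± 0.0676 and 5.38 ± 0.306 CPM in the same order. Rank 6 averaged 8.15 ± 2.13, 8.06 ± 0.916, 12.2 ± 1.46 and 22.6 ± 1.09 CPM. In all of these models the T4 libraries did not overlap with any earlier library. On the log2 scale T4 exceeded T3 by 1.06 ± 0.12, 1.02 ± 0.18 and 0.80 ± 0.12 (SE) in the edgeR fit.

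**Figure D2:**
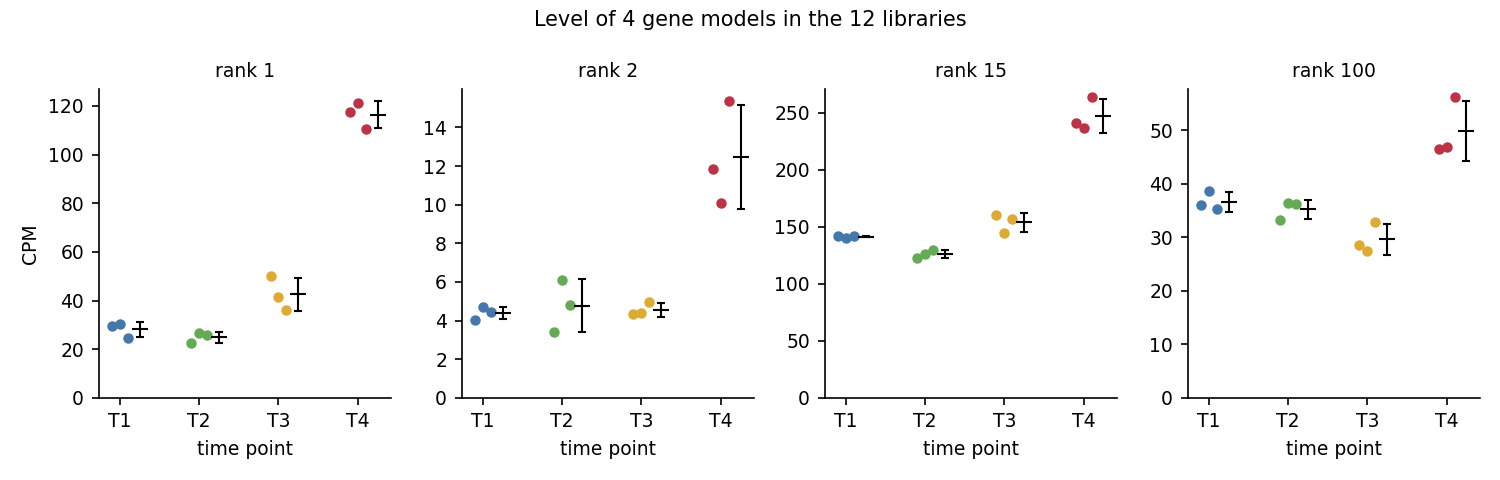
Reads per 1000000 counted reads (CPM) of ranks 1, 2, 15 and 100 in each of the 12 libraries (points, coloured by time point), with the mean and SD of the 3 replicates beside them (bars). In all 4 models every T4 library lay above every earlier one. Rank 100 had its lowest level at T3, with a mean of 29.6 CPM, and rank 2 had the widest spread at T4 relative to its mean, from 10.1 to 15.4 CPM.

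The 3 models with the highest T4 level were already among the most abundant of the set before T4. The highest (rank 15, Lacbi1.estExt_fgenesh2_pg.C_70268) had 142, 141 and 142 CPM at T1, 123, 126 and 129 at T2, 161, 145 and 156 at T3, and 241, 236 and 264 at T4. Its T4 libraries stood apart from all others, and T2 was its lowest time point. Rank 45 averaged 162 ± 11.2, 154 ± 2.51, 161 ± 5.39 and 238 ± 14.4 CPM from T1 to T4 (SD, n = 3). Rank 71 averaged 86.5 ± 4.02, 79.6 ± 4.32, 89.8 ± 1.52 and 125 ± 8.86 CPM. These models, with no overlap in CPM between T4 and the earlier libraries, had log2 fold changes of T4 against T3 of 0.59 ± 0.06, 0.48 ± 0.06 and 0.39 ± 0.06 (SE).

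The set as a whole consisted of models of low to middle abundance. The median of their mean level over all libraries was 8.48 CPM, against 20.7 CPM over all tested models. At T4, 34 of the 100 were above the median of all tested models, 21.5 CPM, and 5 were in the highest 10%. CPM values are not adjusted for the length of the coding sequence, so levels of different models are not compared further. A mean count under 50 was found in 34 models, 50 to 200 in 35, and 200 or more in 31. In 6 models the mean count over T1 to T3 was under 11, so that they passed the count minimum only through their T4 libraries.

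The reads of the 100 models together made up a small share of each library, which was similar at T1 and T2, a little higher at T3 and highest at T4. They took 0.159% ± 0.0019 of the counted reads at T1 and 0.157% ± 0.0023 at T2, then 0.176% ± 0.0068 at T3 and 0.276% ± 0.0113 at T4 (SD, n = 3). The libraries of T4 held 0.267% to 0.289%, above the highest T3 library at 0.183%. Libraries held between 10598530 and 13187194 counted reads, and totals of T4 libraries spanned this whole range.

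Before T4 the models moved little. From T1 to T2 the median step was 0.03 on the log2(CPM + 1) scale and 57 models stepped up. From T2 to T3 it was 0.12 and 90 models stepped up. No shares over all tested models are given for these counts, so nothing is read from them. The last step had a median of 0.56. The range over T1, T2 and T3 had a median of 0.21, and over all tested models 0.43, and its largest value in the set was 0.74, in rank 1. The rule favours a narrow earlier range, since it limits the earlier steps.

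Before T4 the level was mostly highest at T3, an order that the choice itself favours. Where T1 or T2 lies above T3, the difference used for ranking is smaller than the last step. T3 was the highest earlier time point in 77 models, T1 in 14 and T2 in 9. The lowest time point was T1 in 55 models, T2 in 42 and T3 in 3. Of the 100 models, 48 stepped up in both earlier intervals and 1 stepped down in both. Shares over all tested models are not given for these orders, so nothing is read from them. Relative to the mean of the 9 earlier libraries, the median of the 100 models was between 0.06 and 0.15 in the 3 T3 libraries and between 0.63 and 0.70 in the 3 T4 libraries. The median of all tested models was between 0.03 and 0.05 in the T3 libraries and between 0.11 and 0.12 in the T4 libraries on the same scale.

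**Figure D3:**
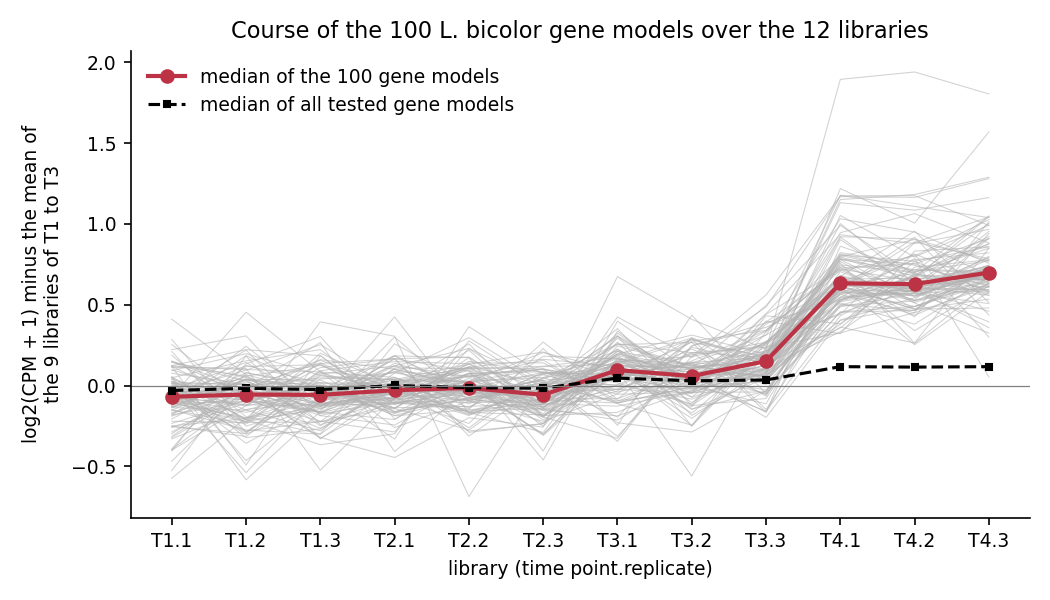
The log2(CPM + 1) of each of the 100 gene models (grey lines) in the 12 libraries, minus its own mean over the 9 libraries of T1 to T3. The red line is the median of the 100 models, which reached 0.63, 0.63 and 0.70 in the 3 T4 libraries, and the dashed line is the median of all 14352 tested models, which reached 0.11 to 0.12 there. Lines join libraries to guide the eye, and replicates of a time point have no order.

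In contrast to most of the set, rank 100 first dropped and then recovered. It had 35.9, 38.7 and 35.2 CPM at T1, 33.2, 36.4 and 36.2 at T2, 28.5, 27.4 and 32.9 at T3, and 46.4, 46.8 and 56.2 at T4. The T3 libraries were the lowest and the T4 libraries the highest, with no overlap between T4 and the rest. Its log2 fold change was 0.66 ± 0.08 (SE) against T3 but 0.32 ± 0.08 against T1, so that much of its last step made up for the decline at T3. This order did not hold with the authors' factors described further on, with which its mean was 97.1 ± 0.908 adjusted CPM at T1 and 85.3 ± 3.13 at T2 (SD, n = 3), while T3 had 75.8 and T4 had 82.3 ± 6.17, below T1 and T2.

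The replicates of T4 mostly lay together, with a spread near that of all tested models. In 93 of the 100 models all 3 T4 libraries were above all 9 earlier ones, and this held for 19.9% of all tested models. The 7 others had ranks of 39, 85, 91, 93, 94, 95 and 96. The ratio of the highest to the lowest T4 library, as CPM + 1, had a median of 1.15, against 1.13 over all tested models, reached 1.66, and exceeded 1.5 in 4 models. In no model (0 of 100) did 1 library hold more than 50% of the T4 level, which occurred in 0.41% of all tested models. Replicate 3 was the highest T4 library in 51 models, replicate 1 in 26 and replicate 2 in 23, whereas over all tested models these shares were 36.4%, 27.6% and 36.0%. Replicate 2 was the lowest in 47 models, but no share over all tested models is given for this, so nothing is read from it. Replicate 2 was also the T4 library with the fewest reads, while replicate 3 had the most. The part of depth in this order was not tested.

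The 2 models with the widest T4 replicates had few reads. Rank 85 had 11, 17 and 8 reads at T1, 11, 10 and 17 at T2, 10, 17 and 10 at T3, and 25, 27 and 15 at T4. Its lowest T4 library was below the highest of each earlier time point, so the groups overlapped. Rank 69 had 18, 22 and 21 reads at T1, 16, 20 and 14 at T2, 18, 8 and 23 at T3, and 27, 26 and 54 at T4. Here the groups did not overlap, but T4 replicate 3 had about as many reads as the other T4 libraries together. Their log2 fold changes of T4 against T3 were 0.65 ± 0.33 and 0.91 ± 0.29 (SE). For rank 85 it was 0.40 without T4 replicate 2 and 0.95 without T3 replicate 2. For rank 69 it was 0.56 without T4 replicate 3, 0.59 without T3 replicate 2 and 1.21 without T3 replicate 3.

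The T4 libraries were also read one at a time. The rule was applied with each T4 library left out in turn, and the left-out library was then read for the 100 models so chosen. It lay above all 9 earlier libraries in 90 models for replicate 1, 83 for replicate 2 and 90 for replicate 3, while this held for 31.3%, 30.0% and 32.0% of all tested models. It exceeded the highest earlier time point mean in 99, 95 and 97 models, compared with 44.0%, 43.0% and 43.4% of all tested models. The median difference in the left-out library was 0.48, 0.46 and 0.51, against 0.56, 0.57 and 0.51 in the pair of libraries used for the choice. The left-out libraries of replicates 1 and 2 thus had smaller median differences than the pairs used. The 9 earlier libraries entered the choice in each case, so these values describe the chosen models and test nothing, and the T4 libraries come from the same day and medium.

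In the edgeR fit over all tested models, 65 of the 100 models were called higher at T4 than at T3 at a false discovery rate of 1%, and 6.09% of all tested models were. Against T2 88 were called higher (25.3% of all tested models) and against T1 92 (30.9%). In 63 models T4 was called higher against each of T1, T2 and T3 (4.99% of all tested models), and 5 were called in none of these comparisons. Since the rule selected on these differences, nothing is read from the counts of calls. The median log2 fold change of T4 against T3 was 0.57, with a range of 0.35 to 1.44, and it was -0.01 over all tested models. Against T2 the medians were 0.68 for the set and 0.02 for all tested models, and against T1 they were 0.73 and 0.04.

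The earlier intervals held few calls, as the rule demanded. T2 differed from T1 in 1 model, while 36.8% of all tested models differed, and this model was lower at T2, as were 18.9% of all. T3 differed from T2 in 6 models, against 38.8% of all tested models. Of these, 5 were higher at T3 (18.6% of all tested models) and 1 was lower (20.2%). Ranks 1, 6 and 15 were among the 5 higher at T3, with log2 fold changes of 0.73, 0.56 and 0.25. Rank 100 was the model lower at T3, with -0.29 ± 0.09 (SE). Over the whole time course 90 models were called (69.0% of all tested models).

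Models with more reads were called more often. Of the 31 models with a mean count of 200 or more, 31 were called higher at T4 than at T3, with a median log2 fold change of 0.50 and a median SE of 0.08, while 653 of the 7793 tested models of this class were called. Of the 35 with 50 to 200 reads, 25 were called, with medians of 0.51 and 0.12 (178 of 3700 tested models). Of the 34 with fewer than 50 reads, 9 were called (43 of 2859 tested models), and their median SE was 0.23. Their median log2 fold change of 0.74 was the largest of the 3 classes, an order that the choice itself favours. Adding 1 to the CPM narrows differences at low levels, so such models needed a larger fold change to be taken. The lowest log2 fold change among the called models was 0.35 in the deepest class and 0.68 in the shallowest. Of the 35 models that were not called, 25 had a mean count under 50.

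**Figure D4:**
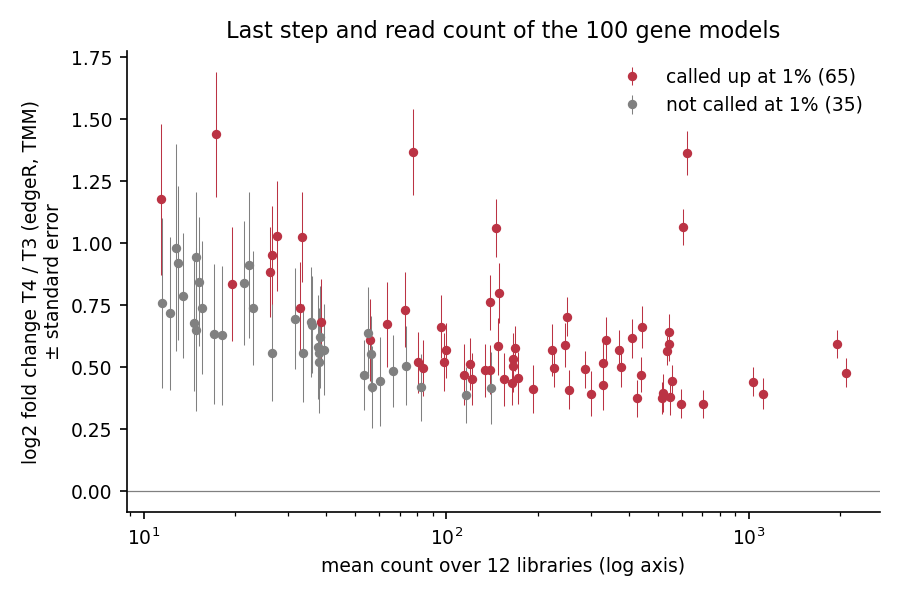
The log2 fold change of T4 against T3 (edgeR with TMM, bars show ± 1 SE) against the mean count over the 12 libraries, on a log axis, for the 100 gene models. Red points (65) were called higher at T4 at a false discovery rate of 1% and grey points (35) were not. The largest errors and most of the uncalled models lie at mean counts under 50.

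The size of the step depended on how the libraries were scaled. CPM takes the library total as the reference, and on that scale the median last step of all tested models was 0.08, against -0.01 with TMM, which gave T4 libraries a factor of 1.06 and T1 libraries factors of 0.964 to 0.977. With TMM scaling the median difference between T4 and the highest earlier time point of the 100 models was 0.46, and 89 models had no overlap between T4 and the earlier libraries (11.9% of all tested models). When the rule itself was applied to TMM-scaled values, 363 models met the step condition and 81 of the 100 were chosen again.

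The authors' own factors, which adjust each count for the length and G/C content of the model and for depth, changed more. All 100 models were in the factor table. With these factors 57 of the 100 met the step condition, the median difference was 0.43 (range -0.55 to 1.42), 92 were still above their highest earlier time point, and 70 had no overlap (10.7% of all tested models). The log2 fold change of T4 against T3 was lower than with TMM in 63 models, and 40 models were called higher at T4 (3.83% of all tested models), of which 38 had also been called with TMM. Applied to values with these factors, the rule chose 32 of the 100 again. In rlog, the authors' regularized log2 values, the median difference was 0.24, with 93 models above 0, and the rule chose 30 again.

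**Figure D5:**
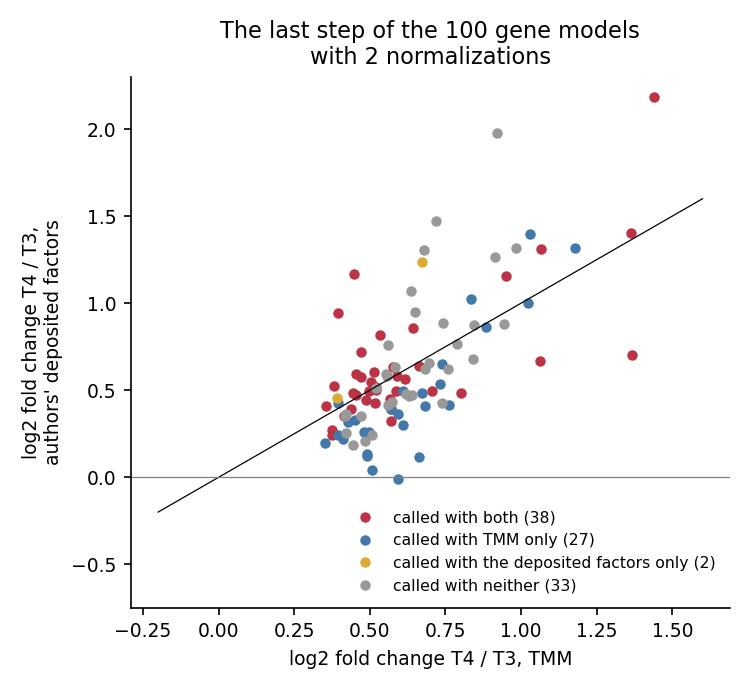
The log2 fold change of T4 against T3 of the 100 gene models with the authors' deposited factors (vertical) against that with TMM (horizontal). The diagonal marks equal values, and colours show which models were called higher at T4 at a false discovery rate of 1%: 38 with both, 27 with TMM only, 2 with the factors only and 33 with neither. One model, rank 15, lay just below 0 with the factors.

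The model with the highest T4 level in CPM lost its last step with these factors. For rank 15 (Lacbi1.estExt_fgenesh2_pg.C_70268) the deposited factors were 0.604, 0.607 and 0.637 in the T3 libraries and 1.03, 0.970 and 1.24 in the T4 libraries, so that its higher T4 counts were divided by larger numbers. With the factors its mean was 241 ± 8.58 at T3 and 239 ± 15.1 at T4, on the scale of adjusted CPM, and its largest step fell between T2, at 170 ± 1.82, and T3 (SD, n = 3). The log2 fold change of T4 against T3 was -0.01 with the factors and 0.59 with TMM. With the factors rank 45 was highest at T2, at 128 ± 0.625 adjusted CPM against 124 ± 9.14 at T4 (SD, n = 3). Rank 71 remained highest at T4, at 388 ± 139. Beyond the depth of the libraries, the factors were higher at T4 than at T3 by a median of 0.14 (log2) in the 100 models and 0.09 in all models of the table, and they were higher in 75 of the 100 models and in 76.4% of all. Rank 1 and rank 3 kept their last steps, with log2 fold changes of 1.41 and 1.31. The log2 fold changes of rank 2 and rank 100 went from 1.37 to 0.70 and from 0.66 to 0.12. With the factors rank 1 averaged 67.0 ± 4.98, 55.1 ± 2.82, 69.4 ± 8.09 and 184 ± 7.48 adjusted CPM from T1 to T4 (SD, n = 3). Its T3 mean was thus close to its T1 mean. Rank 2 averaged 52.3 ± 3.11, 51.6 ± 13.7, 43.5 ± 0.957 and 70.4 ± 4.20 in the same order, with its lowest mean at T3.

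The 100 models held only part of the largest last steps in L. bicolor. Of the 100 tested models with the largest step from T3 to T4, 10 were in the set. Of the other 90, 81 were already higher at T3 than at T1 and 88 had T4 above every earlier time point. The largest last step was 1.61, and 2 models exceeded the 1.43 of rank 1. Among models that met the 60% condition for an interval, the last interval also held the fewest upward steps of at least 2-fold. The intervals differ in length (day 2 to 13, 13 to 23 and 23 to 30). When the same rule was turned to the other intervals, 126 models that moved mainly from T1 to T2 and 124 that moved mainly from T2 to T3 stepped up at least 2-fold, against 3 at T4. In the same direction and with the same 60% condition, 632 models moved up and 124 down mainly at the last step with CPM, and 363 and 277 with TMM. The comparison of both directions under TMM was added after seeing the data.

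The model names gave a property that the rule had not used. The prefix Lacbi1., which marks 1 of the naming schemes in the table, was carried by 37 of the 100 models and by 30.6% of all tested models. A linkage group (LG) was part of the name in 27 models and in 33.4% of all tested models. Its number could be read without doubt in 26 of them, which were spread over linkage groups 1 to 6 and 8 to 10, with at most 7 on one of them (linkage group 1). None of these 26 had linkage group 7. Of all tested models with a readable number, 26.0% had linkage group 1 and 166 (3.55%) had linkage group 7.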

How the data were processed

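The authors removed ribosomal reads, aligned single-end reads to the L. bicolor gene models with TopHat2 (version 2.0.13), 1 hit per read, and counted reads on coding sequence, by strand, with HTSeq (version 0.6.1), per the submitters' processing notes and the paper's methods. The deposited counts are unnormalized whole reads of each gene model. Near-identical gene copies are therefore uncertain. The authors also deposited factors per model and library (a ratio by which a count is divided, for length, G/C content and depth) and rlog values on a log2 scale.

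Counts of the 12 L. bicolor libraries were fitted together in edgeR (version 4.0.16, run in R 4.3.3) by quasi-likelihood with TMM and no covariates, and p-values were adjusted over all 14352 models (Benjamini-Hochberg, 1%). Library totals were 10598530 to 13187194 reads, and errors given are SD over 3 replicates, or SE from the fit. The labels do not say whether replicates came from separate cultures, so the spread may be partly technical. No pair of replicate libraries of the same time point agreed within sampling noise (chi-square per degree of freedom 1.76 to 10.6).

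The members, lists and rules were chosen with earlier results of these data known. Named models were ranks 1 to 6 and 100, the first 2 left out, the 3 with the highest T4 level, the 2 with the widest T4 replicates and the 2 with the highest earlier level (ranks 15 and 45). Since no table used here annotates them, 2 names are printed. Alternatives were DESeq2 (version 1.42.0) and its size factors, the authors' factors, no filter and a minimum mean count of 50, a replicate block, a false discovery rate of 5%, each library left out, and the rule with other scalings, pseudocounts (0.1 and 5), shares (0.5 and 0.7) and medians. Columns of all 24 libraries were used; P. involutus entered only the same rule.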

Additional observations from a re-analysis of the deposited data

How the results depend on the processing

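The authors' factors lowered most counts of models called and a false discovery rate of 5% raised them. With the factors 40 models were called higher at T4 than at T3 (3.83% of all tested models) and 57 higher than at T2 (21.2% of all tested models), 3 differed between T1 and T2 (29.2%), and the median log2 fold change of T4 against T3 was 0.50. Of the models named, rank 15 had the opposite sign (-0.0089, adjusted p = 0.96 in edgeR), and ranks 5, 45 and 100 were no longer called (1.00, 0.26 and 0.12 on the log2 scale). A minimum mean count of 50 gave a median of 0.53 over the 66 models left. Without the count filter 2 models differed between T1 and T2 (29.7%), and rank 69 was called. At a false discovery rate of 5%, 90 models were called higher at T4 than at T3 (10.5% of all tested models), 7 differed between T1 and T2 (47.6%) and 15 between T2 and T3 (49.6%). DESeq2 called 53 models higher at T4 than at T3 (5.07% of all tested models).

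With each library left out in turn, 53 to 65 models were called higher at T4 than at T3 (3.69% to 6.80% of all tested models), 74 to 89 than at T2 (22.4% to 25.4%) and 78 to 93 than at T1 (28.1% to 31.2%). Over the time course 75 to 92 were called (65.1% to 68.5%), between T1 and T2 1 to 2 (30.8% to 37.2%), and between T2 and T3 3 to 6 (33.1% to 39.1%), with 3 without T3 replicate 3. Without T4 replicates 1 and 3 only 99 and 97 of the 100 passed the count minimum. The count between T1 and T2 was 2 without T1 replicate 3. The median log2 fold change was 0.53 to 0.60, lowest without T4 replicate 3, and 93 to 96 models had no overlap between T4 and the earlier libraries (20.1% to 24.6% of all tested models).

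The list itself was less stable. Of the 100 models, the rule chose again 81 with TMM, 32 with the authors' factors, 30 with rlog, 77 and 66 with pseudocounts of 0.1 and 5, 52 and 46 with shares of 0.5 and 0.7, 81 with no count filter, 66 with a minimum mean count of 50, 58 with medians of the replicates, and 64 to 90 with 1 library left out (64 without T3 replicate 3). The cause was not tested. Models that moved mainly at the last step numbered 363 up and 277 down with TMM in L. bicolor, and 373 down in P. involutus.

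With the replicate number as a block, 64 models were called higher at T4 than at T3 (6.03% of all tested models) with a median log2 fold change of 0.57, and no other count of calls moved by more than 1.5 times. Same-numbered libraries of different time points shared only a number, with correlations of their deviations between -0.05 and 0.13 over 18 pairs.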

Other observations

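Under the same rule the last interval of P. involutus, from T3 on day 9 to T4 on day 13, held larger steps. Of 12032 tested gene models, 465 moved up and 248 down mainly at this step with CPM, and 483 and 373 with TMM. The 100 models with the largest difference between T4 and the highest earlier time point had a median difference of 0.99, a largest difference of 2.73 and a smallest of 0.72, and 48 of all models that moved up mainly at this step did so at least 2-fold. In L. bicolor, between day 23 and day 30, the corresponding values were 0.54, 1.43, 0.43 and 3. Days and lengths of the intervals differ between the species, so the values stand side by side and the difference was not tested.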
